A study of Mus musculus with 3 samples.

Results

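The dual specificity MAP kinase phosphatases are the genes Dusp1, Dusp2, Dusp4, Dusp5, Dusp6, Dusp7, Dusp8, Dusp9, Dusp10 and Dusp16. Their members were taken by name, as every probe set that the platform annotation assigned to that gene alone. All 10 genes were on the array, with 18 probe sets, among 18194 genes and 34958 probe sets assigned to 1 gene. A single probe set was available for 5 of the genes, which leaves their level without a second reading. RNA came from 3 samples of 3T3-L1 adipocytes, a model fat cell grown from a line of mouse fibroblasts that store lipid once differentiated, exposed to glucose oxidase for 2 h and called insulin resistant in the labels. Glucose oxidase makes hydrogen peroxide as it oxidises glucose. The 3 samples, replicates 1 to 3, form 1 group and were measured on the mouse4302 Affymetrix array, and arrays of control cells were not analysed here. The values are therefore levels after treatment, and no effect of glucose oxidase could be tested.

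MAP kinases are switched on when a threonine and a neighbouring tyrosine of their activation loop are phosphorylated, and the dual specificity phosphatases of this family remove both phosphates. One branch, Dusp1, Dusp2, Dusp4 and Dusp5, is nuclear and is made on demand as early response genes. Another, Dusp6, Dusp7 and Dusp9, is cytoplasmic and acts mainly on ERK, and the remaining branch, Dusp8, Dusp10 and Dusp16, acts mainly on the stress kinases JNK and p38. Their catalytic cysteine can be oxidised by hydrogen peroxide, so these enzymes are known both as brakes on stress signalling and as targets of oxidants.

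Transcripts of 9 of the 10 phosphatases were above background after glucose oxidase, and the exception was Dusp9. Above background means that a probe set of the gene lay over a log2 intensity of 7.50, a linear intensity of 181, in all 3 arrays, and 55.7% of all genes met this rule. The limit is set by 83 probe sets of receptor genes for smell, pheromones and bitter taste, as the 95th percentile of their mean levels. These genes are known mainly from sense organs, and whether the cells make any of them was not tested. All 4 nuclear inducible genes, 2 of the 3 cytoplasmic ERK-selective genes and all 3 JNK- and p38-selective genes passed. Counted by probe set, 11 of 18 passed, against 46.5% of all probe sets assigned to 1 gene. Each of the other 7 lay below the limit in every array. Intensities of different probe sets depend on their own probes, so the levels of different genes were not ranked.

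**Figure D1:**
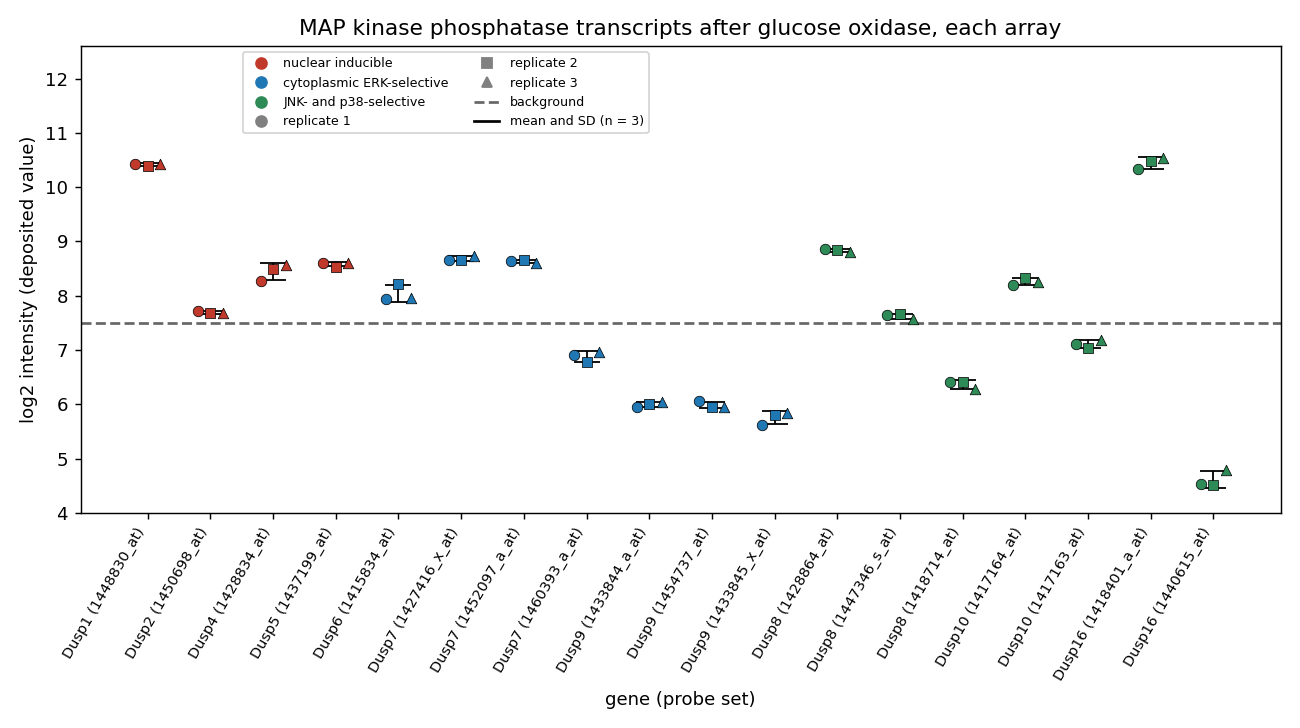
Log2 intensity of each of the 18 probe sets in replicates 1, 2 and 3 (circles, squares and triangles), with the mean and SD (n = 3) and the background of 7.50 as a dashed line. Colours give the branch, and 11 probe sets lie above the line in all 3 arrays whereas 7 lie below it.

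The promoters of 8 members could be read, as windows of 300 bases from 250 before to 50 after a transcript start, from RefSeq on GRCm38.p6, and Dusp4 and Dusp9 are named only. Binding motifs were searched on both strands, by exact letters, and a match is a description and no proof of binding. The cAMP response element core TGACG, read by CREB and ATF factors, was in 5 of 8 windows (Dusp1, Dusp2, Dusp5, Dusp8 and Dusp16), against 20.8% of all 32851 windows. Among the 9690 windows with a GC content of at least 60%, to which 7 of the 8 members belong, the share was 31.6%, and 5 of those 7 members held the site. Dusp1, Dusp5 and Dusp8 are shown because their matches are paired or adjacent. Capitals mark every match to this core, the CCAAT box CCAAT and the CArG box, which serum response factor reads.
Dusp1: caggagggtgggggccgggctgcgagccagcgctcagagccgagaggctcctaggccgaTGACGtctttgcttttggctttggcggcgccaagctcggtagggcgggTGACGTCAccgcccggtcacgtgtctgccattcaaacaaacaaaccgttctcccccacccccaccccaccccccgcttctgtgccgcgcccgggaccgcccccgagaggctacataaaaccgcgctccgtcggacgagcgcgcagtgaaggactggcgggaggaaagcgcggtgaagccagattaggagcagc
Dusp5: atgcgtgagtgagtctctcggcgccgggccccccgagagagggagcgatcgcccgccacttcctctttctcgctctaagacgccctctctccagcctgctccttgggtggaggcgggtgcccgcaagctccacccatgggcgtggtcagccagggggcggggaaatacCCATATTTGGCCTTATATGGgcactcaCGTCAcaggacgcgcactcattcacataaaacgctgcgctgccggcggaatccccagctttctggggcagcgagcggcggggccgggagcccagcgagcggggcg
Dusp8: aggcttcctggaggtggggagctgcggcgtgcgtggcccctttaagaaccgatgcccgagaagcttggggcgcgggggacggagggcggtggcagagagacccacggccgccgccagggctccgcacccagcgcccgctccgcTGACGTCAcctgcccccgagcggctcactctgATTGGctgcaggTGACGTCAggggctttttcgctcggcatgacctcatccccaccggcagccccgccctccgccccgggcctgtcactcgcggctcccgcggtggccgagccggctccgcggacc

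The Dusp1 window is chr17:26508423-26508722 on the minus strand, the Dusp5 window chr19:53528895-53529194 on the plus strand, and the Dusp8 window chr7:142095235-142095534 on the minus strand. The Dusp8 and Dusp16 windows lie wholly within the annotated genes, which begin at 142095907 and 134807063 on the minus strand. The start used for Dusp7 also lies inside its gene, which begins at 106368560. Positions in Dusp7, Dusp8 and Dusp16 are therefore counted from a start inside the gene. In Dusp1 and Dusp8, core sites on opposite strands overlapped into a full palindrome, which spans -143 to -136 in Dusp1, counted from the transcript start. Dusp8 held the palindrome at both -107 to -100 and -63 to -56. At least 1 such palindrome was in 1.79% of all windows and at least 2 were in 0.0396%, shares that were computed after the matches had been seen. Both Dusp1 and Dusp8 have GC-rich windows, and the shares among GC-rich windows were not computed. Dusp1 held a further core site at -191 to -187. In Dusp2 the core site lay just past the start, at 6 to 10, in Dusp5 it lay at -55 to -51, and in Dusp16 at -70 to -66.

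Dusp5 alone held the CArG box, which was in 1.63% of all windows and 1.07% of the GC-rich ones. Its 2 boxes lie end to end, at -82 to -73 and -72 to -63, and 0.0183% of all windows held at least 2, a share also computed after the match had been seen. The CCAAT box was in 5 of 8 windows (Dusp6, Dusp7, Dusp8, Dusp10 and Dusp16), against 37.4% of all windows, and in 4 of the 7 GC-rich members, against 31.6% of GC-rich windows. Dusp10 held 4 of them, and 3.37% of all windows held at least 3, counted after the values were seen. The shares with at least 2 CArG boxes or at least 3 CCAAT boxes were not computed among GC-rich windows. No member window held the AP-1 site TGACTCA (5.2% of all windows), the EGR core GCGTGGG (5.04%), the TATA box TATAAA (13.6%) or the ETS core CCGGAA (14.9%). Among the GC-rich windows these shares were 2.69% for the AP-1 site, 11.4% for the EGR core, 3.21% for the TATA box and 26.0% for the ETS core. The AP-1 site and the core site share their first letters but cannot be one match. The GC content of the member windows was between 57.3% in Dusp6 and 78.7% in Dusp7, with a median of 52.7% over all windows.

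**Figure D2:**
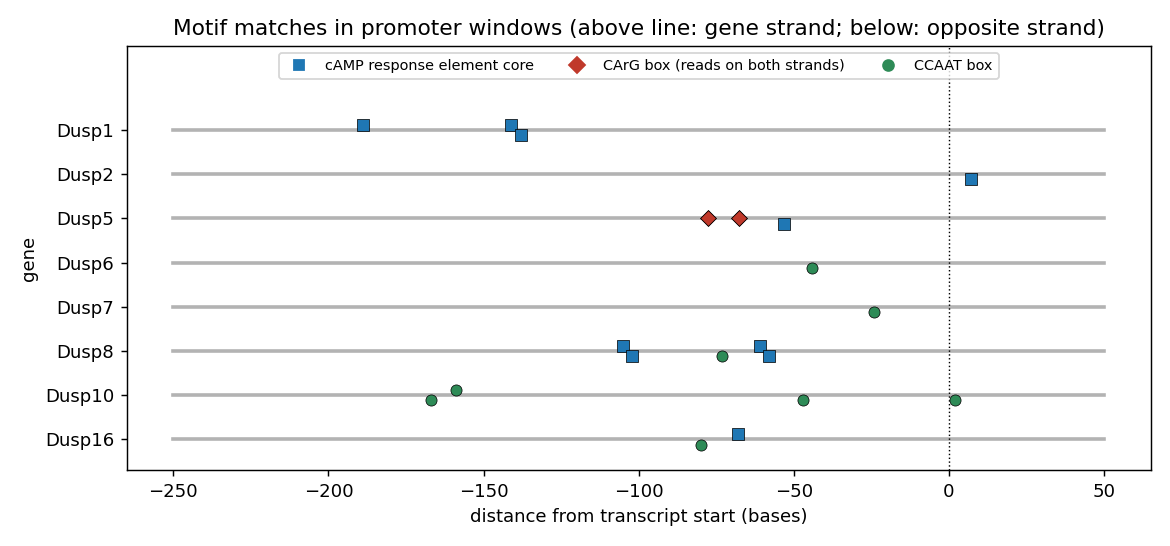
Distance in bases from the transcript start of each motif match in the 8 promoter windows, drawn above the grey line for the gene's strand and below it for the opposite strand, with CArG boxes on the line. Overlapping core sites on opposite strands are seen once in Dusp1 and at both positions in Dusp8, the adjacent CArG boxes in Dusp5 and 4 CCAAT boxes in Dusp10.

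The nuclear inducible branch was above background in each of its 4 genes. Dusp1, an immediate early gene whose product acts on p38, JNK and ERK, had log2 intensities of 10.43, 10.38 and 10.43 in replicates 1, 2 and 3 (10.42 ± 0.027, SD, n = 3), which is 7.55-fold over background. The 3 arrays were close, with the highest linear intensity 1.03 times the lowest. Dusp5, which acts on ERK in the nucleus, had 8.60, 8.54 and 8.61 (8.58 ± 0.038, SD, n = 3), 2.11-fold over background. No receptor probe set reached the mean level of either gene.

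Dusp4, a nuclear phosphatase of ERK, JNK and p38, had 8.27, 8.50 and 8.57 (8.45 ± 0.16, SD, n = 3), with 1 of the 83 receptor probe sets at or above it. Replicate 1 stood below the others, and the linear intensities were 308, 361 and 380, a ratio of 1.23 between highest and lowest. Dusp2, known from activated lymphocytes, had 7.72, 7.67 and 7.68 (7.69 ± 0.025, SD, n = 3), which is only 1.14-fold over background. Its arrays were close to each other, but 3 of the 83 receptor probe sets were at or above its mean, and with the 99th percentile as the limit, 8.05, Dusp2 was not above background. Of 4 lymphocyte markers measured, Cd3e, Cd4 and Cd8a were above background as well, at 8.27, 7.75 and 7.62, although the cells were a fibroblast line. Only 1 of 2 Cd4 probe sets and 1 of 5 Cd8a probe sets passed. Passing the limit at such levels therefore does not by itself show that the cells make a transcript. Whether these signals come from the named genes was not tested.

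The cytoplasmic ERK-selective branch was mixed. Dusp6, the feedback phosphatase of ERK that ERK signalling itself induces, had 7.94, 8.22 and 7.95 (8.04 ± 0.16, SD, n = 3), 1.45-fold over background. Replicate 2 stood above the other arrays, which were nearly equal, and 1 receptor probe set was at or above the mean. At the 99th percentile limit Dusp6 was not above background either.

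Dusp7, a close relative of Dusp6 in function, had 3 probe sets that disagreed. Probe set 1427416_x_at had 8.66, 8.66 and 8.73 (8.69 ± 0.041, SD, n = 3), and 1452097_a_at had 8.65, 8.65 and 8.61 (8.64 ± 0.025, SD, n = 3). Both were above background in all 3 arrays, whereas 1460393_a_at was below it in all 3, at 6.91, 6.77 and 6.96. Every Dusp7 probe set carries the suffix _a_at or _x_at, so leaving out probe sets with such suffixes left no reading of the gene. Whether these probe sets also read other genes was not tested.

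Dusp9, encoded on the X chromosome and known from placenta and from insulin-responsive tissues, was below background in each of its 3 probe sets. Their linear intensities were 61.9, 63.9 and 65.5 on 1433844_a_at, 66.5, 61.9 and 61.7 on 1454737_at, and 48.9, 56.1 and 57.2 on 1433845_x_at, where background is 181. At these levels 34, 35 and 40 of the 83 receptor probe sets were at or above the mean of the probe set, so no Dusp9 transcript was detectable by this rule.

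The JNK- and p38-selective branch passed in each of its 3 genes, but in only 4 of its 7 probe sets. Dusp16, a phosphatase of JNK and p38, had 10.33, 10.48 and 10.53 on 1418401_a_at (10.45 ± 0.11, SD, n = 3), 7.71-fold over background. Its other probe set, 1440615_at, had 4.54, 4.51 and 4.79, below background in all 3 arrays, with 59 of the 83 receptor probe sets at or above it. The level of Dusp16 therefore rests on 1 probe set.

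Dusp10, which restrains p38 and JNK, had 8.20, 8.32 and 8.25 on 1417164_at (8.26 ± 0.060, SD, n = 3), 1.69-fold over background. The other Dusp10 probe set, 1417163_at, was below background at 7.11, 7.04 and 7.19. Dusp8, best known from brain and heart, had 8.86, 8.84 and 8.81 on 1428864_at (8.84 ± 0.024, SD, n = 3), 2.53-fold over background, and 3 arrays that lay close together. Probe set 1447346_s_at of Dusp8 had 7.65, 7.66 and 7.57, 1.09-fold over background, and 1418714_at was below it at 6.40, 6.41 and 6.27. All 3 genes of this branch thus had at least 1 probe set under the limit.

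The arrays agreed closely for most of the family. The median SD over the 11 member probe sets above background was 0.0413 on the log2 scale, against 0.0512 over all 16246 probe sets above background. Dusp4 and Dusp6 were the exceptions, since 98.0% and 97.8% of all those probe sets had a smaller SD, and for Dusp16 the share was 90.2%. Compared only with probe sets of like level, the shares with a smaller SD were 97.3% for Dusp4, 97.0% for Dusp6 and 94.2% for Dusp16. Dusp1 was among the steadier probe sets, with 19.0% having a smaller SD, and the shares were 16.9% for Dusp2, 33.1% for Dusp5, 60.1% for Dusp10 and 15.3% for Dusp8 on 1428864_at. No source says whether the 3 samples were separate cultures, so the spread may be technical.

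**Figure D3:**
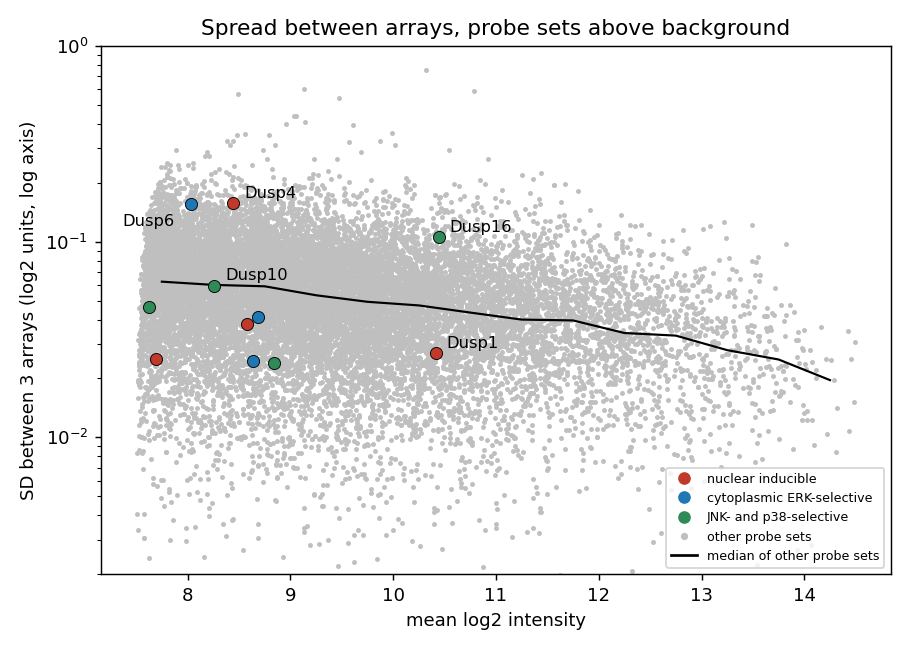
SD between the 3 arrays (log2 units, logarithmic axis) against the mean log2 intensity, for the 11 member probe sets above background (coloured by branch) and all other probe sets above background (grey), with the median of the others as a line. Dusp4, Dusp6 and Dusp16 lie above the line, Dusp10 lies on it and Dusp1 below it.

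Replicate 1 was the lowest array for Dusp4, Dusp6, Dusp10, Dusp16 and 1427416_x_at of Dusp7, which is 5 of the 11 member probe sets, and for 47.1% of all probe sets above background. The highest array of these differed, being replicate 3 for Dusp4, Dusp16 and this Dusp7 probe set and replicate 2 for Dusp6 and Dusp10. Over the 11 probe sets, replicate 1 was highest for 2, replicate 2 for 4 and replicate 3 for 5, and of all probe sets above background 22.9%, 33.9% and 43.1% were highest in these arrays. Replicate 3 was above replicate 1 in 7 of 11 member probe sets (63.6%), against 61.6% of all, so the members' share was near that of all probe sets. The median difference of replicate 3 minus replicate 1 was 0.0096 over the member probe sets and 0.028 over all.

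**Figure D4:**
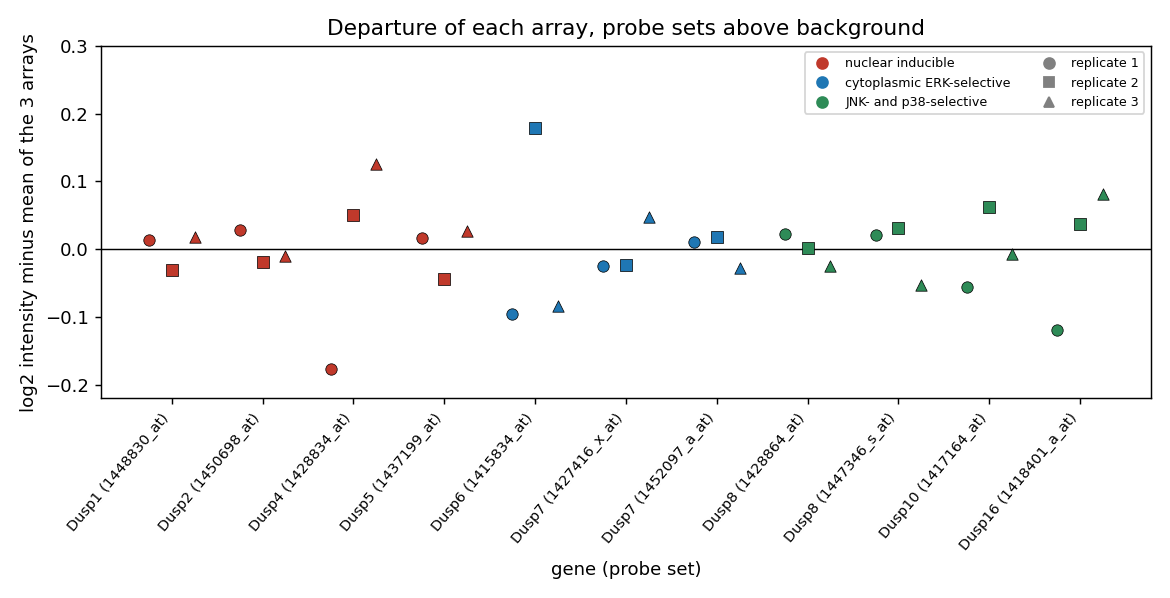
Log2 intensity in replicates 1, 2 and 3 (circles, squares and triangles) minus the mean of the 3 arrays, for the 11 member probe sets above background, coloured by branch. Replicate 1 of Dusp4 and Dusp16 lies below 0, and replicate 2 of Dusp6 lies farthest above 0.

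The kinases that these phosphatases act on were measured on the same arrays. Of 12 MAP kinase genes, 6 were above background: Mapk14 (p38 alpha) at 11.51 ± 0.040, Mapk8 and Mapk9 (JNK kinases) at 9.04 ± 0.046 and 9.94 ± 0.056, Mapk7 (a large ERK family member) at 9.15 ± 0.038, Mapk6 at 11.69 ± 0.019 and Nlk at 9.46 ± 0.025 (SD, n = 3 each). The JNK gene Mapk10, known from neurons, was not above background, at 5.36 ± 0.11, nor were the p38 genes Mapk11 at 6.72 ± 0.083 and Mapk13 at 6.04 ± 0.062 (SD, n = 3 each). Another p38 gene, Mapk12, had 7.75, 7.86 and 7.48 and missed the limit in replicate 3. Mapk4 at 5.76 ± 0.096 and Mapk15 at 7.03 ± 0.18 (SD, n = 3 each) did not pass.

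Upstream of the MAP kinases, 5 of 6 MAP kinase kinases passed, among them Map2k3, which activates p38, at 10.87 ± 0.036, Map2k1, which activates ERK, at 11.14 ± 0.050, and Map2k4, which activates JNK, at 9.20 ± 0.038 (SD, n = 3 each). Map2k6, another activator of p38, had 7.45, 7.55 and 7.59 and missed the limit in replicate 1. Of 15 MAP kinase kinase kinases 12 passed, with Braf at 9.32 ± 0.029 and Araf at 10.35 ± 0.055 (SD, n = 3 each), both of the RAF family that starts the ERK cascade. Map3k6, Map3k8 and Map3k10 did not pass. The count of 12 was 7 with the 99th percentile limit and 6 with the median over the probe sets of each gene. All 7 MAP kinase-activated kinases passed, including Mapkapk2, a p38 substrate, at 10.54 ± 0.031 and Mknk2, a kinase of the translation factor eIF4E, at 13.08 ± 0.015 (SD, n = 3 each). Of 7 scaffold genes 6 passed, with Lamtor3 at 10.98 ± 0.028 and Iqgap1 at 10.40 ± 0.032 (SD, n = 3 each), and Ksr2 did not.

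Relatives of the family, not all of them acting on MAP kinases, and inhibitors of the pathway passed in part. Of 19 atypical dual specificity phosphatases, small relatives without the kinase-docking domain of the family, 12 passed, a share of 63.2% that is near the 55.7% of all genes. Dusp11, a phosphatase of RNA ends, was at 10.20 ± 0.0047 and Ptpmt1, a mitochondrial lipid phosphatase, at 10.88 ± 0.028 (SD, n = 3 each), whereas Dusp13, Dusp15, Dusp21, Dusp26, Dusp27, Styxl1 and Epm2a did not pass. Of 5 other phosphatases of MAP kinases, the metal-dependent enzymes Ppm1a at 11.68 ± 0.036, Ppm1b at 10.80 ± 0.046 and Ppm1d at 8.90 ± 0.044 (SD, n = 3 each) passed, and the tyrosine phosphatases Ptpn5 and Ptprr did not. Of 7 Sprouty and Spred genes, feedback inhibitors of RAS and ERK signalling, 5 passed, with Spry1 at 9.96 ± 0.036, Spry4 at 8.92 ± 0.094, Spred1 at 9.66 ± 0.071 and Spred2 at 9.05 ± 0.029 (SD, n = 3 each). Spry3 and Spred3 did not, and with the median over the probe sets of each gene the count was 3 of 7.

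Of 10 transcripts that ERK signalling is known to induce, 8 passed, among them Egr1 at 12.13 ± 0.036, Ier2 at 11.49 ± 0.014, Junb at 10.18 ± 0.033 and Ier3 at 11.30 ± 0.077 (SD, n = 3 each), all early response genes. The ETS factor genes Etv4 at 7.49 ± 0.079 and Etv5 at 6.48 ± 0.16 (SD, n = 3 each), known in embryos as targets of FGF signalling along with Dusp6, did not. Over the 9 lists, the atypical phosphatases included, 64 of 88 measured genes were above background, against 55.7% of all genes. The medians of the SD between arrays were 0.0385 for the atypical phosphatases, 0.0821 for the Sprouty and Spred genes and 0.0413 for the dual specificity MAP kinase phosphatases.

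**Figure D5:**
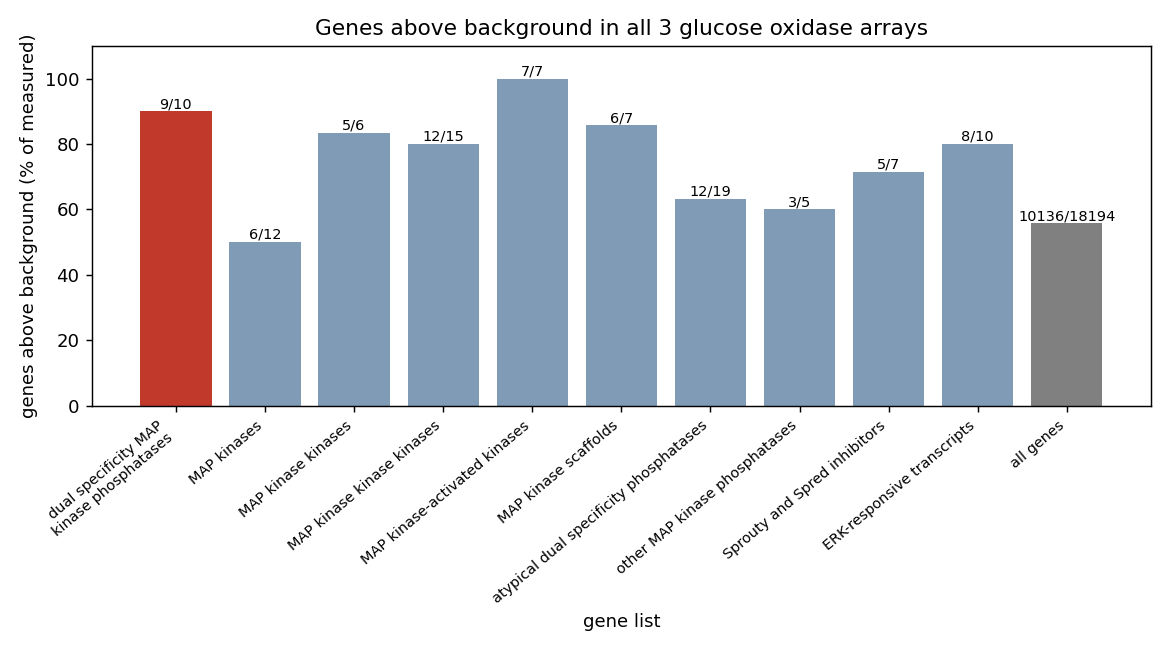
Share of measured genes above background in all 3 arrays (percent), for the dual specificity MAP kinase phosphatases, 9 lists of pathway and related genes and all genes, with the counts above the bars. The phosphatases stand at 9 of 10 and the MAP kinases at 6 of 12, beside 10136 of 18194 for all genes.

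Medians of linear intensity were 127.6, 126.9 and 126.9 in replicates 1, 2 and 3. No array stood apart, with Pearson's r of log2 intensity between 0.997 and 0.998 across the 16246 probe sets above background. The tissue label names preadipocytes, whereas the growth protocol describes differentiated adipocytes. Of 10 adipocyte markers measured, 9 were above background, among them Adipoq at 14.49 ± 0.031 and Slc2a4, the insulin-responsive glucose transporter, at 11.23 ± 0.061 (SD, n = 3 each), and only Lep, at 5.79 ± 0.045, was not. Of 9 preadipocyte and fibroblast markers 7 were above background. Among them were Dlk1 at 13.24 ± 0.10, on 1 of its 2 probe sets, and Col3a1 at 13.91 ± 0.019 (SD, n = 3 each). Col1a1 at 12.75 ± 0.069 and Pdgfra at 10.82 ± 0.17 passed too (SD, n = 3 each). Cd34 at 5.49 ± 0.080 and Dpp4 at 7.24 ± 0.044 did not (SD, n = 3 each). Markers of both states were thus above background, and the counts do not settle the label. Of 7 macrophage markers 3 (Csf1r, Lyz2 and Cd14) passed, and of 5 endothelial markers 1 (Kdr). The macrophage markers Adgre1, Cd68, Ptprc and Itgam were not above background. The samples were a cultured line, and whether it makes the macrophage and endothelial marker transcripts that passed was not tested.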

How the data were processed

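Affymetrix arrays of 3 glucose oxidase samples were used, and time and treatment came from the labels and the methods. Background correction and normalization were done by the authors with RMA in affyPLM (version not given in the sources used here), and the deposited values are linear intensities. RMA usually gives log2 values, so log2 was taken of each deposited intensity. Any scaling after RMA, and which arrays were normalized together, stay unknown. All 3 columns of values were used.

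The platform annotation gave the gene of each probe set (34958 with 1 gene, 932 with several, 9211 with none). Of those with 1 gene, 34754 matched RefSeq genes of GRCm38.p6 by Entrez identifier, and 0 symbols changed. A gene was represented by its probe set of highest mean level. All members were named, all MAP kinases, and in each other list the genes not above background and at most 4 with the smallest SD relative to their distance above background. Markers were named to check the label. The members and lists were chosen with earlier results of these data known. Counting was tested on simulated data in which present probe sets lay far above the limit, so calls near the limit were not tested. There was 1 group, so no test was run, and the number of arrays limits the precision. Alternatives were other background limits and genes, the median over the probe sets of each gene, omission of those with the suffix _s_at, _x_at or _a_at, centring, and leaving out each array. Python 3.11.15 with pandas 2.3.3, numpy 2.4.6 and matplotlib 3.10.9 was used.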

Additional observations from a re-analysis of the deposited data

How the results depend on the processing

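The count of members above background was 9 under the 90th percentile limit, with centred arrays, and without any 1 array. The shares of all genes were 58.3% under that limit, 55.7% with centred arrays, and between 55.9% and 56.3% without 1 array. The member count was 7 with the 99th percentile (without Dusp2, Dusp6 and Dusp9), where 47.8% of all genes passed. With keratin-associated protein and defensin genes as background it was 8 (without Dusp2 and Dusp9), against 49.7% of all genes. The median over the probe sets of each gene gave 8 (without Dusp9 and Dusp16), against 45.2% of all genes. Without probe sets that carry the suffix _s_at, _x_at or _a_at it was 7, against 51.1% of the 16593 genes still measured. That setting left no probe set for Dusp7, and Dusp9 and Dusp16 did not pass. Counting genes above the limit in any 1 array, an alternative chosen after seeing the data, also gave 9. The count of member probe sets, 11, was 8 with the 99th percentile, 9 with the other background genes, and 11 under the others. The MAP kinase kinase kinases above background numbered 7 with the 99th percentile and 6 with the median of probe sets, and the Sprouty and Spred genes 3 with that median, where the main counts were 12 and 5. With the median, the levels were 8.64 for Dusp7, 5.95 for Dusp9, 7.62 for Dusp8, 7.69 for Dusp10 and 7.53 for Dusp16. Without the probe sets with these suffixes Dusp16 was at 4.62. The cause of these differences was not tested. The median SD of member probe sets, 0.0413, was 0.0436 with centred arrays, 0.0603 over all 18 probe sets, and between 0.0332 and 0.0489 when 1 array was left out. The alternatives left the other counts within 1.5 times the main count. No paired analysis was possible because there was only 1 group of arrays. The planned comparison of protein sequences was not run. Dusp2 and 1447346_s_at of Dusp8, at 1.14-fold and 1.09-fold over background, are at the limit of what the signal can show. Other members were also near background. Dusp6 at 8.04 and Dusp10 at 8.26 were no higher than the lymphocyte marker Cd3e at 8.27. Dusp4, Dusp6 and 1417164_at of Dusp10 each had 1 receptor probe set at or above the mean.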
